A study of Homo sapiens with 6 samples.

Results

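The transcripts described here are the mRNAs with the longest leaders in a ribosome profiling experiment: 733 of 9570 transcripts (7.66%) had a 5′UTR of at least 167 codons, about 500 nt or more. Length alone chose them, counted as the number of codon values the occupancy table holds for the 5′UTR. Their 5′UTRs spanned 167 to 1048 codons, with a median of 214. At the limit, 12 transcripts were 1 codon too short and were not taken, and 9 had exactly 167 codons.

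Ribosome profiling sequences the short pieces of mRNA left under ribosomes after nuclease digestion (ribosome-protected fragments, RPFs). The cells were HEK293, a line from human embryonic kidney, which the labels give as treated with Control siRNA and which were held with cycloheximide at 100 µg/ml to stall elongating ribosomes. There were 3 RPF libraries and 3 total RNA libraries, numbered alike, and each pair came from the same lysate. All libraries are of this 1 condition, so the comparisons are between groups of transcripts within it. In the occupancy table each codon holds the number of in-frame RPFs normalized for library size and divided by the abundance of the mRNA in total RNA (TPM), here called occupancy. The 3 replicates are combined in it, so an occupancy has no replicate error. Only reads in the frame of the main coding sequence (CDS) are listed. Ribosomes in another frame are therefore seen only through those of their reads that were placed in this frame.

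A 5′UTR is the part of an mRNA that the small ribosomal subunit scans from the cap to the start codon. Upstream open reading frames (uORFs) that start there can be translated before the main CDS and often lower its translation, and an in-frame start upstream of the annotated AUG can give a longer form of the protein. Long 5′UTRs are known from genes of growth control, and they offer more upstream AUGs to a scanning subunit.

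The sequences of several upstream start codons are shown first. In C10orf2, PRKD3, FAM13B and WDR12 the first codon of the longest run of occupied codons was an AUG in frame with the main CDS. They are the 4 transcripts, of 32 with a run of 10 or more codons and no other annotated CDS at it, whose run began at such an AUG. MKKS has an annotated uORF that held nearly all of its 5′UTR reads, and in ZNF146 the longest run lay under an AUG open reading frame (ORF) of another frame. In each line the capitals mark the upstream AUG, written as ATG, in a window of 27 nt read 5′ to 3′ from the matched transcript.
MKKS: tgctgaagtactATGagccttcggaac
C10orf2: actacaaaaaggATGcagatgactata
PRKD3: cttttattcaatATGtatttcctgaaa
FAM13B: tgcatttcttcaATGaggaactacagg
WDR12: gggcccacacgtATGggaagaattcta
ZNF146: gacttgggaggcATGttgatccatctc
The windows lie in 5′UTR exons on GRCh37 (hg19), taken from GENCODE 44. That of MKKS is at chr20:10401371-10401397 on the minus strand and that of C10orf2 at chr10:102747569-102747595 on the plus strand. That of PRKD3 is at chr2:37544022-37544048, that of FAM13B at chr5:137356832-137356858 and that of WDR12 at chr2:203776497-203776523, all on the minus strand. The ZNF146 window is at chr19:36726619-36726645 on the plus strand.

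A second set shows AUGs that carried the highest value of their whole 5′UTR, chosen to show how soon a stop codon followed. In RAB10 the next codon is a stop (taa), and in GULP1, RIC8A and SLC39A9 a stop (tga) ends the window.
RAB10: tttcctggggctATGtaactgagctcg
SLC39A9: cacgagaatctaATGactggcatctga
GULP1: agaagaattctgATGgcaactgtatga
RIC8A: ctaacgaacccaATGgcccaggactga
CSNK1A1: tggagtaacaagATGgcgtcgtccgcg
TFDP2: tttatttttttaATGgctttacagaat
RAB10 is at chr2:26257022-26257048, SLC39A9 at chr14:69865814-69865840, GULP1 at chr2:189248532-189248558 and RIC8A at chr11:208426-208452, all on the plus strand. CSNK1A1 at chr5:148930909-148930935 and TFDP2 at chr3:141820614-141820640 are on the minus strand. The reads at these codons are given below with the other peaks.

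The depth behind the values was recovered from the table itself. Each replicate adds to a codon in whole steps, the worth of 1 of its reads, and in 732 of the 733 transcripts all low values could be written with 3 such steps (relative tolerance 1e-08). The 733 transcripts held 211800 in-frame reads in the 5′UTR and 2912489 in the CDS. Per transcript the CDS held 4 to 310961 reads with a median of 1011, and 75 transcripts were under 100. The 5′UTR held a median of 40 reads, and 228 transcripts had at least 100. MTRNR2L1 and MTRNR2L8, nuclear copies of the mitochondrial 16S rRNA gene, held 92948 of the 5′UTR reads (43.9%). Of the 5′UTR sequence of MTRNR2L1, 10.5% of the 30-nt words occur in genes at other loci. The gene that shares most of them is MT-RNR2, the mitochondrial gene itself, so the reads of MTRNR2L1 are uncertain in origin. Medians over transcripts are hardly touched by this pair, but sums are. The 5′UTR held 6.78% of the 5′UTR and CDS reads of the long 5′UTR transcripts, 3.92% without the pair, and 0.847% of those of all other transcripts. Of 9 marker genes of HEK293 cells 8 are listed in either table, among them NEFL and SALL1, and PAX2 is not. Of 8 markers of other cell types only COL1A1 is listed.

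The first question was how densely ribosomes occupied such long leaders. Summed over the whole 5′UTR, 18918 of 178023 codons (10.6%) held an in-frame read. The median transcript had 8.05% of its 5′UTR codons occupied (95% exact binomial interval of the median 7.11 to 8.74, which covers the choice of transcripts only, as do the intervals below). In the next shorter class, with more than 100 codons and fewer than 167 (n = 1523), the median was 8.63%, and in that of 34 to 100 codons (n = 4651) 7.69%. The share of occupied codons thus did not rise beyond 100 codons of length by more than these intervals.

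Mean occupancy per 5′UTR codon, in contrast, was highest in the long class. Its median was 0.00365 (0.00322 to 0.00401), against 0.00286 (0.00258 to 0.00321) in the next shorter class, 0.00181 at 34 to 100 codons and 0.00143 over all transcripts. The arithmetic mean over the 733 transcripts was 0.0142, several times the median. At each depth of CDS reads the long class had the highest median, but its interval overlapped that of the next shorter class. With 5000 or more CDS reads it was 0.00315 (0.00166 to 0.00425), and this interval also reached that of 34 to 100 codons. In long 5′UTRs with no overlap seen with another CDS the median was 0.00314, within the interval of the unfiltered next shorter class. Transcripts of 33 codons or fewer (n = 2663) had a median of 0, with at most 33 codons in which a read could fall. Within the long class, length no longer ordered the values. Spearman's coefficient between length and 5′UTR occupancy was 0.026, and between length and CDS occupancy -0.034 (n = 733, a description over transcripts that share all 3 libraries).

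Occupancy of the CDS, over all depths, was lower in the long class than at 34 to 100 codons. Its median was 0.0370 (0.0340 to 0.0404) in the long class and 0.0399 (0.0374 to 0.0419) in the next shorter class. These intervals overlapped. At 34 to 100 codons it was 0.0485, and 0.0450 over all transcripts. The long class was also read less deeply, with a median of 1011 CDS reads against 1952 at 34 to 100 codons. At 1000 to 5000 CDS reads the medians of CDS occupancy were 0.0485 in both the long class (n = 259) and the class of 34 to 100 codons (n = 1813). With 5000 or more reads the long class stood at 0.0659 (0.0568 to 0.0795, n = 108) against 0.0780 (0.0750 to 0.0821), and with 100 to 1000 reads at 0.0289 against 0.0301, and in both cases the intervals overlapped. The next shorter class stood at 0.0272, 0.0404 and 0.0802 from the lowest to the highest depth. The long class was thus above it at 100 to 1000 and at 1000 to 5000 reads, and below it at 5000 or more.

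The ratio of 5′UTR to CDS occupancy within a transcript removes the mRNA level. Its median was 0.105 (0.0941 to 0.121) in the long class, against 0.0675 in the next shorter class, 0.0344 at 34 to 100 codons and 0.0286 over all transcripts. The order of the classes was the same at each depth. With 100 to 1000 CDS reads the ratio was 0.158 (0.118 to 0.188, n = 291) in the long class, 0.114 in the next shorter class and 0.0563 at 34 to 100 codons. At 1000 to 5000 reads the values were 0.0808 (0.0635 to 0.101), 0.0650 and 0.0356. With 5000 or more CDS reads it was 0.0433 (0.0222 to 0.0643, n = 108), 0.0305 and 0.0214. The intervals of the long class and the next shorter class overlapped at every depth, where each rests on fewer transcripts, while over all depths (0.0610 to 0.0751 for the shorter class) they were apart. The long class had the higher median at each depth.

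**Figure D1:**
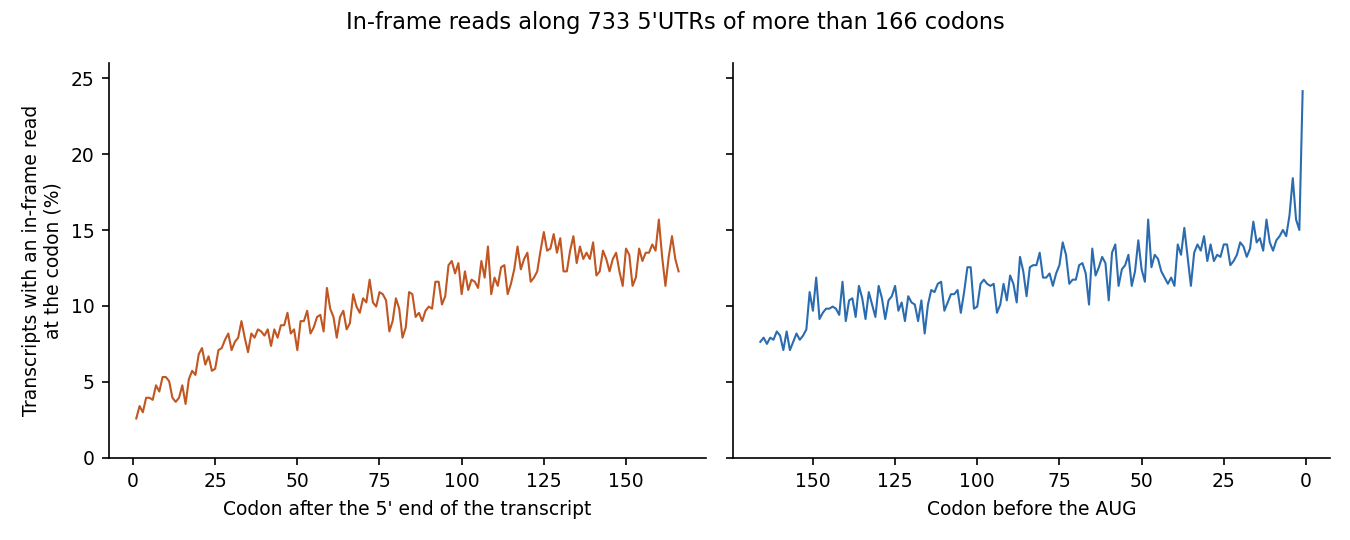
Percentage of the 733 transcripts with an in-frame read at each codon after the 5′ end of the transcript (left) and before the AUG (right), as far as every 5′UTR reaches. The percentage starts at 2.59% at the 5′ end and reaches 24.1% at the codon before the AUG.

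Occupied codons were found all along the 5′UTR and became more frequent toward the AUG. The plot of reads by codon shows a slow climb from the 5′ end: 4.05% of the codons at positions 1 to 10 after the 5′ end were occupied, 7.74% at 21 to 50, 9.99% at 51 to 100 and 12.9% beyond 100. Counted back from the AUG the values were 16.1% at 1 to 10, 13.1% at 21 to 50, 12.05% at 51 to 100 and 9.75% beyond 100. The single codon before the AUG stood apart, with a read in 24.1% of transcripts, and codons 2 to 5 held one in 16.3% of cases. The third of the 5′UTR next to the AUG held a median of 39.5% of the occupancy (35.1 to 44.2, n = 708 with a read), against 47.0% in the next shorter class and 66.7% at 34 to 100 codons. The third in the middle held 27.2% and the third next to the cap 13.3%. The single highest codon held a median of 23.4% of a 5′UTR's occupancy.

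No in-frame read at all was found in the 5′UTR of 25 transcripts (3.41%). A count of 0 allows up to 3 reads, and for 22 of the 25 even 3 reads would have given a ratio below the median of 0.105, by counting error alone. The lowest limit was that of TSR1, a ribosome assembly factor, with 0 reads in 315 codons beside 23523 CDS reads, which allows a ratio of up to 0.000326. NFE2L2, the transcription factor of the oxidative stress response, had 0 reads in 181 codons beside 4374 in the CDS. The longest of these 5′UTRs were those of FOXD2 (703 codons, 616 CDS reads), NUAK1 (456 codons, 293 CDS reads) and LMO7 (416 codons, 626 CDS reads). TSR1 and NFE2L2 were picked for this text after their values were seen. How long these leaders are in the cell is uncertain, since GENCODE gives the transcript with the same CDS a 5′UTR of only 10 codons for TSR1, 50 for NFE2L2, 30 for FOXD2 and 100 for NUAK1, while that of LMO7 has 420.

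The 5 longest leaders of the table, of which FOXD2 is 1, had few occupied codons. EGLN1, the prolyl hydroxylase that marks hypoxia-inducible factor for breakdown, had the longest 5′UTR (1048 codons), with 15 reads in 10 codons beside 2621 CDS reads. SKIDA1 (747 codons) had 1 read beside 65 CDS reads, and ARHGEF40 (700 codons) had 21 beside 30. HK2, hexokinase 2 of glycolysis, was read more often, with 139 reads in 35 of 638 codons and 6174 in the CDS. For HK2 the GENCODE 5′UTR with the same CDS has only 151 codons, and that of EGLN1 is shorter still, so the length of these leaders is uncertain too. All of the EGLN1 occupancy and 89.5% of that of HK2 lay in the third next to the AUG. For SKIDA1 GENCODE gives 751 codons.

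**Figure D2:**
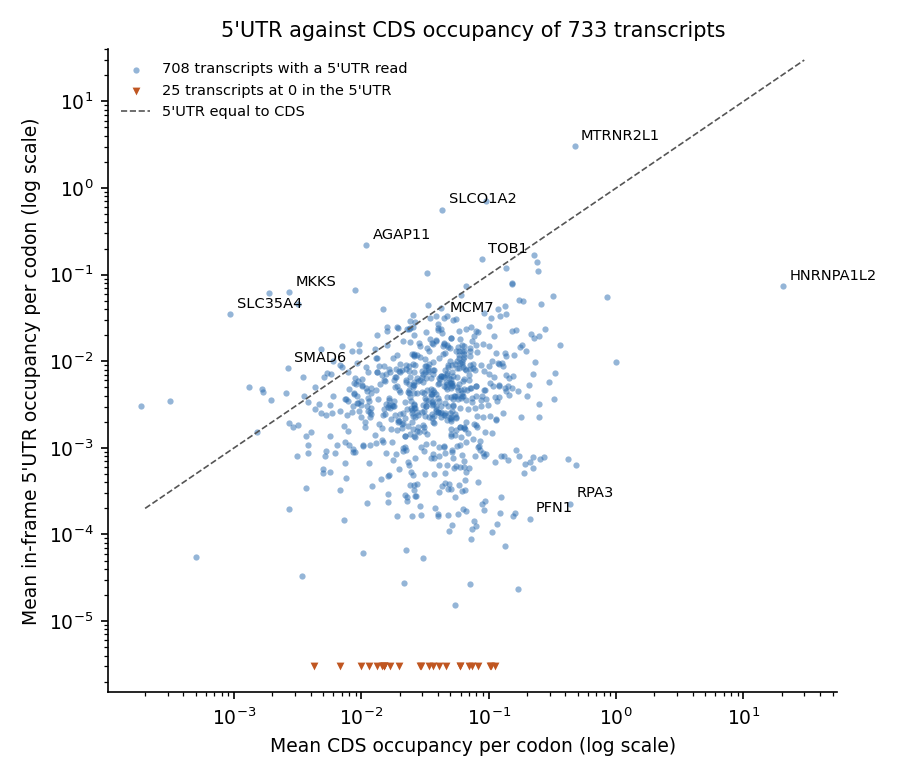
Mean in-frame 5′UTR occupancy per codon against mean CDS occupancy per codon for the 733 transcripts, both on log scales. The dashed line marks equal values, triangles mark the 25 transcripts with no 5′UTR read, and 50 transcripts lie above the line.

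More ribosome occupancy upstream than in the CDS was found in 50 of the 733 transcripts (6.82%, exact interval 5.10 to 8.89), where 2.49% of all transcripts with a CDS read passed this limit. The scatter of 5′UTR against CDS occupancy shows them above the dashed line. Of the 50, 18 had fewer than 100 CDS reads, so their ratios rest on few counts. In 9 of the 50 at least 50% of the 5′UTR reads lay in an annotated CDS of another transcript or in a longer CDS of the same gene. Among the 575 transcripts matched to a sequence, with no overlap with another CDS in the part that the sequence covered, 28 passed (4.87%). The rest of these 5′UTRs was not checked.

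The highest ratio was that of SLC35A4, a solute carrier of the family of nucleotide sugar transporters, at 37.1, with 1779 reads in the 5′UTR and 47 in the CDS. Of these reads 1490 lay in 98 codons that overlap another annotated CDS of SLC35A4 in a different frame, where 78.6% of codons were occupied against 5.15% of the other matched codons. Those other matched codons held only 8 reads. The matched sequence reached 234 of the 329 codons, and the highest codon of SLC35A4, 235 before the AUG with 265 reads, lay just beyond it. MKKS, a chaperonin-like protein gene of the basal body, had a ratio of 22.9 with 1347 reads against 134. SLCO1A2, an organic anion transporter gene, had a ratio of 13.04 (510 against 112 reads), and 30.2% of its 5′UTR 30-nt words occur in another gene. ERV3-1, an endogenous retroviral envelope gene, had 100 reads against 10. AGAP11 had 2138 against 148.

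The 8 highest mean occupancies of the 5′UTR among transcripts with at least 20 occupied codons belonged to MTRNR2L1 (3.03), MTRNR2L8 (0.700), SLCO1A2 (0.563), AGAP11 (0.217), POM121C (0.168), TOB1 (0.150), SRGAP2 (0.141) and HPGD (0.118). Several of these belong to families of near-identical copies, and reads may be shared between such copies. POMZP3 shares 89.0% of its 5′UTR 30-nt words with genes at other loci, among them POM121C. Both had their longest run over the same codons 45 to 29 before the AUG, so reads of this pair cannot be assigned to either gene.

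The next question was whether occupied codons followed one another, as they would along a translated stretch. A run was counted as consecutive codons that each held an in-frame read. The longest run of a transcript had a median of 3 codons, as in the next shorter class, and 2 codons over all transcripts. A run of 10 or more codons was found in 67 of the 733 transcripts (9.14%, exact interval 7.15 to 11.5), beside 3.58% of all transcripts and 6.11% of the next shorter class. A longer 5′UTR has more places for such a run, and these shares were not adjusted for length. Among the 575 matched transcripts with no overlap with another CDS in their covered part it was found in 35 (6.09%, 4.28 to 8.36). Some of these runs, such as that of HNRNPA1L2, lie outside the covered part and were not checked. The other classes were not filtered in this way. The median transcript with such a run had 2732 CDS reads, and over all 733 the longest run and the CDS reads had a Spearman coefficient of 0.393 (a description; both come from the same libraries). Runs lay throughout the leader. In 23 of the 67 the run ended within 50 codons of the AUG, in 30 it ended further up but fewer than 167 codons away, and in 14 beyond that.

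What the annotation holds at these runs differed. In 9 transcripts most of the run overlapped an annotated CDS of another transcript in the same frame (KPNB1, MKKS, ZNF33A, SH3D19, ADAR, MCRS1, EPB41L3, CCDC8 and ZNF107), and in 5 one in another frame (UTP14C, PTP4A1, EIF5, SLC35A4 and LCOR). In 7 it lay in a longer CDS of the same gene that reads through the table's AUG (MCM7, MSH6, TOB1, ZNF286A, SIK3, NFAT5 and CDK11B). Of the rest, 6 transcripts had no matching transcript, 8 had a run in a stretch for which the matched transcript gave no sequence, and 32 had no other CDS at the run.

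**Figure D3:**
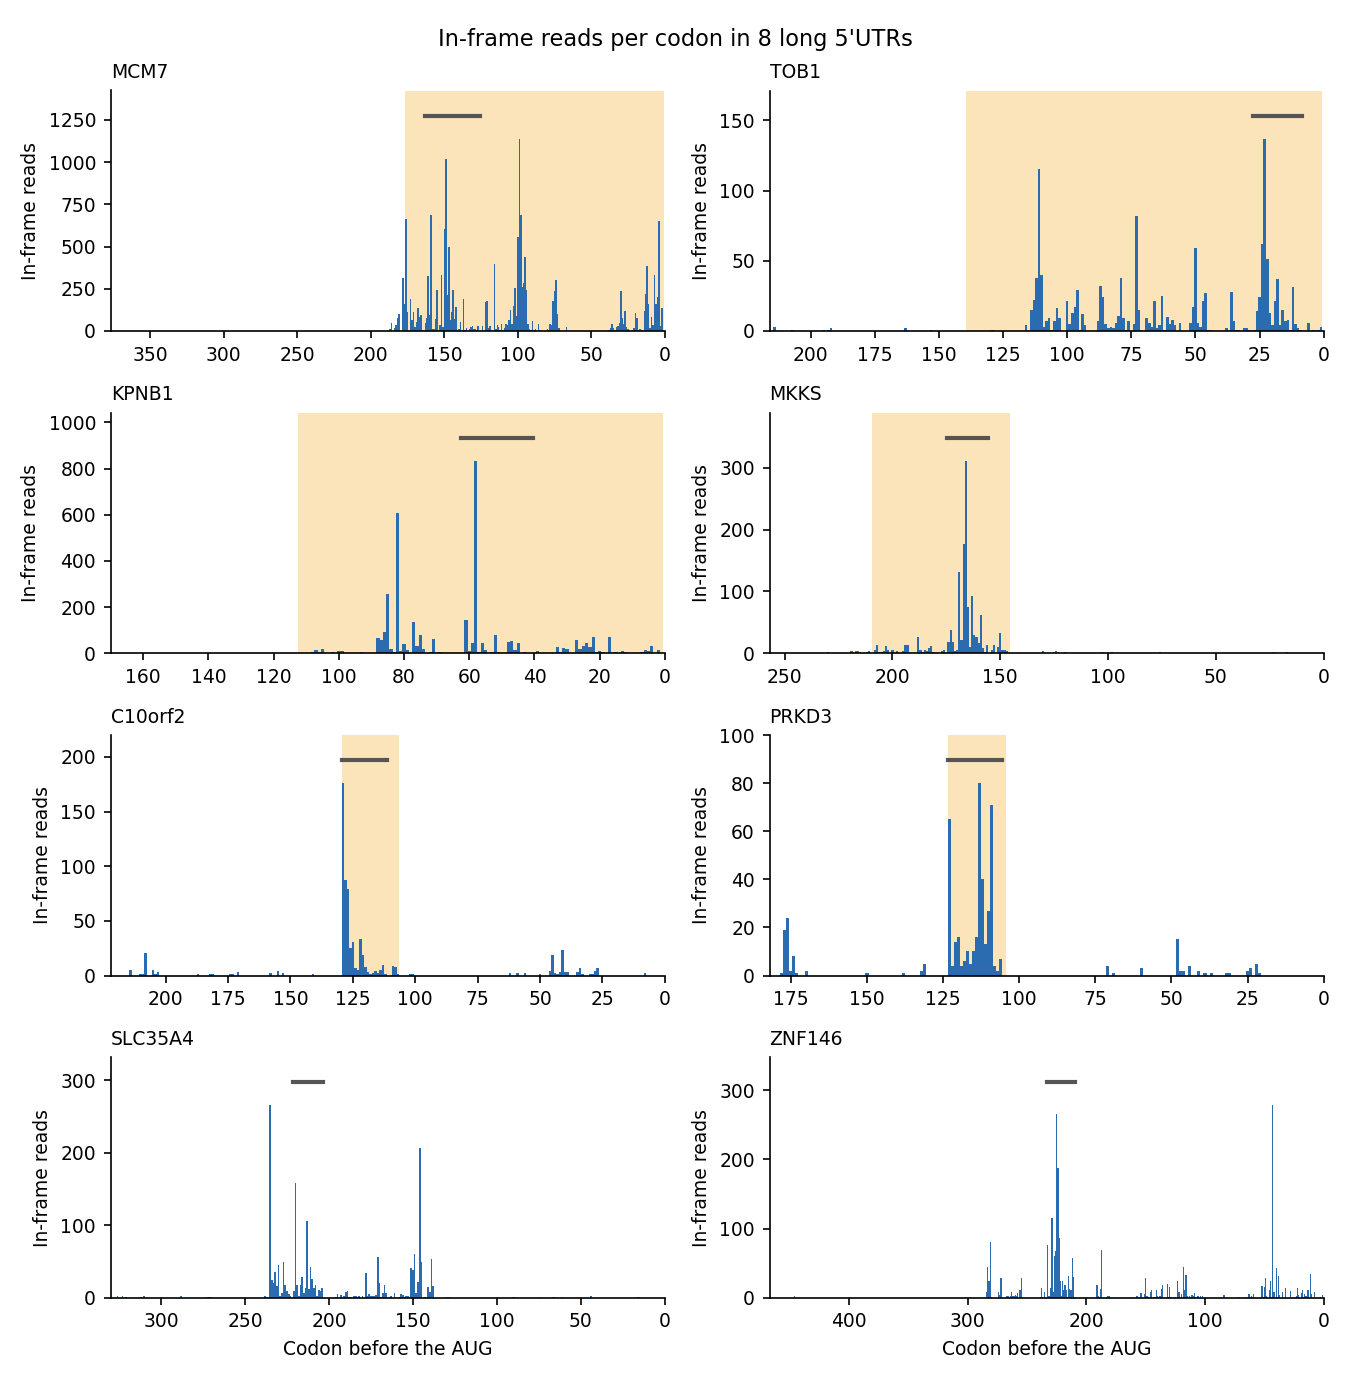
In-frame reads per codon along the 5′UTR of 8 transcripts, numbered back from the AUG. The dark bar marks the longest run, and the shaded stretch is the part inside a longer CDS of the gene (MCM7, TOB1), a same-frame CDS of another transcript (KPNB1), an annotated uORF (MKKS) or an AUG ORF (C10orf2, PRKD3), where 77.6% to 100% of the reads lie.

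MCM7, a subunit of the replicative DNA helicase, had the longest run, 38 codons from 163 to 126 before the AUG. Its table CDS has 544 codons, while GENCODE lists a CDS of 720 codons in the same frame. In the 176 codons by which the longer form extends into the 5′UTR, 142 were occupied, and they held 16845 of 17617 5′UTR reads (95.6%, exact interval 95.3 to 95.9). Outside them 6% of codons were occupied. The trace of MCM7 shows the reads end a few codons above the start of the longer CDS, where the 20 codons upstream still held 768 reads. TOB1, an antiproliferative protein of the BTG family, showed the same picture with 1377 of 1388 reads (99.2%) in the 139 codons of its longer CDS and 1 read in the 20 codons above.

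In all, 49 transcripts had no GENCODE transcript of the same gene with the table's CDS length, and for 20 of them (40.8%) a longer CDS of the gene held an in-frame ATG at exactly that length. In these 20, 22278 of 23395 5′UTR reads (95.2%) lay in the 67.1% of codons that belong to the longer CDS. Codons inside were occupied more often than those outside in 15 of the 17 transcripts that had both. MSH6, the mismatch repair protein (689 of 689 reads), the kinesin KIF14 (583 of 586) and the poly(A) polymerase PAPOLA (840 of 910) belong to this set. The exceptions were TBCK (34.2% of reads inside) and KIF14, where 37.9% of the 491 codons inside and 40% of the few outside were occupied. In RGL2, with only 8 reads, both shares were close (3.66% and 3.42%). The check for a longer CDS was made after the trace of MCM7 had been seen. In these transcripts that part of the table's 5′UTR is coding sequence in another annotated form of the mRNA.

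KPNB1, importin beta of the nuclear import pathway, had all of its 3503 5′UTR reads in the 112 codons next to the AUG that are a same-frame CDS in another transcript of the gene, with 92 codons occupied and 0 reads above them. ADAR, the RNA-editing adenosine deaminase with an interferon-induced longer form, had 1236 of 1239 reads in such a stretch of 290 codons. In UTP14C, a copy of a ribosome biogenesis gene whose transcript overlaps ALG11, 721 of 722 reads fell in 169 codons that belong to the CDS of ALG11 in another frame. In PTP4A1, a protein tyrosine phosphatase, 31 codons of an unnamed annotated CDS in another frame held 4066 of 4747 reads, with 90.3% of them occupied.

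Over all 733, 678 transcripts (92.5%) matched a GENCODE transcript by symbol and CDS length, 196 of them also in 5′UTR length within 5 codons, and the matched sequence covered 109949 of the codons (61.8%). RefSeq, from which the table was built, and GENCODE often place the 5′ end differently: for 210 transcripts all GENCODE 5′UTRs with the same CDS had fewer than 167 codons. Within the covered codons, 103 5′UTRs overlapped a CDS of another transcript, 83 of them in the same frame.

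MKKS held the clearest annotated uORF. The uORF has 64 codons with its stop, from 209 to 146 codons before the AUG and in the same frame, and its start is the MKKS sequence shown above. It held 1294 of 1347 reads (96.1%, exact interval 94.9 to 97.0), with 84.4% of its codons occupied against 14.6% outside. The 20 codons above it held 21 reads and the 20 below it 6. A further annotated uORF of MKKS, of 51 codons in another frame, held 14 reads.

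Altogether 14 annotated uORFs of 9 to 71 codons were found in 13 transcripts, counting only those that lay whole in the covered sequence. Annotated CDSs of another frame that were not found whole in it are left out. Among them are those that held 4066 of 4747 reads in PTP4A1, 1490 of 1779 in SLC35A4 and 652 of 1004 in EIF5. The counts that follow therefore do not cover all upstream CDSs. Of the 7 in the same frame, 6 were occupied more often inside than outside, and so were 4 of the 7 in another frame. Some of these rest on few reads: MBTPS1 had 1 read inside, TSC22D4 2 and APBB2 3, and by mean occupancy these uORFs were lower inside than outside. KMT2E, a chromatin regulator, had 58.8% of its reads in a same-frame uORF of 26 codons that makes up 14.9% of the 5′UTR. AZIN1, the antizyme inhibitor of polyamine control, had 59.4% in a uORF of 53 codons in another frame. The uORF of MIEF1, annotated as MIURF with 71 codons in another frame, held 26 of 104 reads in this frame, and 15.7% of its codons were occupied against 27.5% outside.

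Of the 32 runs with no other CDS at them, 9 lay mostly under an ORF from an in-frame AUG, 8 only under an ORF from an AUG of another frame, and 15 under neither. Of all 102735 covered codons with no other CDS (without MTRNR2L1), 18142 lay under an AUG ORF of another frame only. A further 8413 lay under an in-frame one only, 2469 under both kinds and 73711 under neither. The counts of runs were not tested against these. In 4 of the 9 runs the in-frame AUG was the first codon. C10orf2, which encodes the mitochondrial helicase Twinkle, had 176 reads at the AUG 387 nt before the start of the main CDS, and 516 of 663 reads (77.8%, exact interval 74.5 to 80.9) in the 23 codons from it to its stop. The 20 codons above this ORF held 1 read and the 20 below it 2.

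PRKD3, protein kinase D3, had 18 of the 19 codons of its ORF occupied, with 394 of 508 reads (77.6%). The AUG itself held 65 reads, and no read was found in the 20 codons after the stop. WDR12, a ribosome assembly factor, had 22 of 25 codons occupied and 230 of 448 reads (51.3%), with 39 reads in the 20 codons above the AUG and 1 in the 20 after the stop. FAM13B had all 16 codons of its ORF occupied, but its 119 reads there were fewer than the 154 in the 20 codons above, so its run did not stand clear of what surrounds it.

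GULP1, an adaptor of phagocytosis, had 229 of 251 reads (91.2%) in an ORF of 21 codons and 0 in the 20 codons below it. MBNL1, a splicing regulator, had 38 of 46 codons of its ORF occupied, with 208 of 315 reads (66.0%). SLC41A1, a magnesium transporter, had 150 of 216 reads (69.4%) in 16 of 48 codons. MBNL2, a further splicing regulator of that family, had 183 of 327 reads (56.0%) in its ORF of 28 codons, but the 20 codons above held 83. WASF1, an actin regulator, had 45 of 129 reads (34.9%) in 8 of 22 codons, with 41 reads in the 20 codons above and 19 in the 20 below. Occupancy within these ORFs was uneven, and the highest codon of PRKD3 held 80 reads where the median codon held 10.

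Not all long runs can be read as 1 stretch in the table's frame, since 10 of the 32 crossed an in-frame stop codon. ZNF146, a zinc finger protein, had a run of 24 codons from 233 to 210 before the AUG with 1123 of its 2491 reads. The run crosses 3 in-frame stops and lies inside an AUG ORF of 30 codons in another frame, which spans 712 to 622 nt before the main AUG and starts at the ZNF146 sequence shown above. GPBP1L1 likewise had a run of 15 codons across 3 in-frame stops, most of it inside an ORF of 27 codons in another frame. The reads of these runs were placed in the frame of the main CDS by the deposited table. How many reads such an ORF has in its own frame cannot be read from it.

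**Figure D4:**
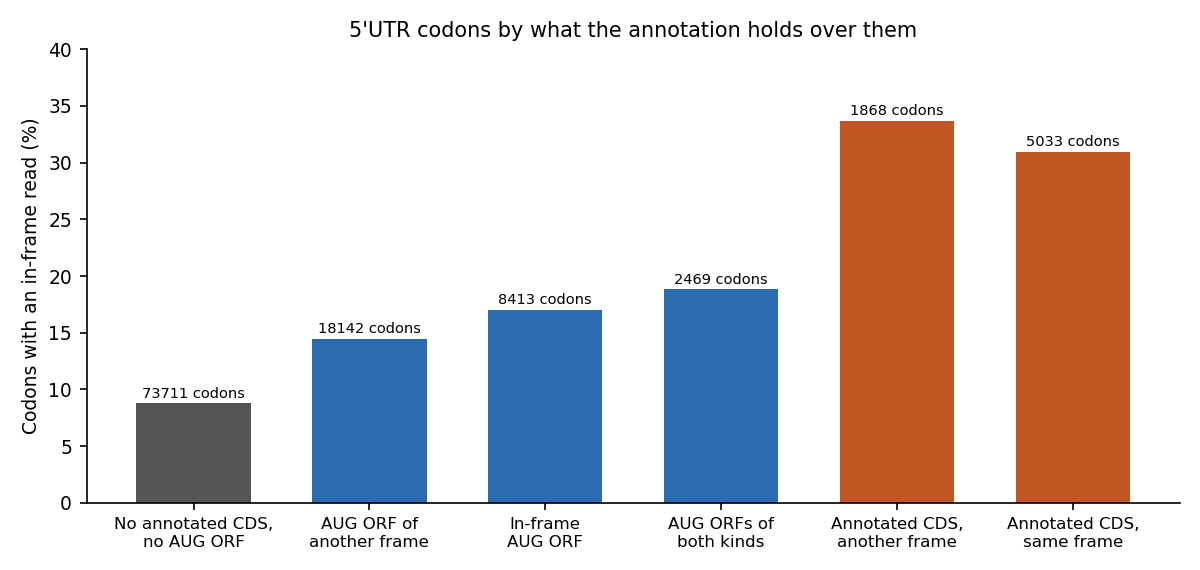
Percentage of covered 5′UTR codons with an in-frame read, by what the annotation or sequence holds over them, without MTRNR2L1. The bars start at 8.77% for codons outside any annotated CDS and any AUG ORF and reach 33.7% for codons of a CDS in another frame; numbers above the bars count codons.

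Over all covered codons, the share occupied differed by what the annotation or sequence holds over them, as the bars of occupied codons by category show. Codons of another annotated CDS were occupied most often, 30.9% of 5033 in the same frame and 33.7% of 1868 in another frame, against 10.7% of those with no other CDS (without MTRNR2L1). They made up 4.59% and 1.70% of the codons and held 17.4% and 11.98% of the reads. Single transcripts weigh heavily in these shares of reads. KPNB1 alone held 3503 of the 12585 reads in the same frame, and PTP4A1 4066 of the 8684 in another frame. Within transcripts, codons inside a same-frame CDS were occupied more often than those outside in 47 of 57, and inside one of another frame in 22 of 29, each with at least 10 codons on both sides.

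Among the codons with no other CDS, those outside every AUG ORF were occupied in 8.77% of cases, those in an ORF of another frame only in 14.4%, those in an in-frame ORF only in 17.02% and those in both in 18.8%. Within transcripts with at least 10 codons of each kind and 10 reads, in-frame ORF codons were occupied more often than codons outside ORFs in 121 of 178, with medians of 16.7% and 8.02%. For ORFs of another frame this was so in 196 of 266. The distance to the AUG was not held fixed here, and its part in these differences was not tested.

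Among the codons with no other CDS, those open to the main AUG were not the more occupied ones. Those with no in-frame stop between them and the main AUG were occupied less often than codons beyond such a stop at every distance. Over codons 1 to 5 the values were 14.6% against 21.03%, over 21 to 50 7.19% against 13.8%, and beyond 100 3.63% against 10.3%, in each case without codons of another CDS. The transcripts behind both groups differ, and that was not adjusted for. Leaving out codons of another CDS also took out annotated same-frame extensions, such as those of KPNB1 and ADAR. Transcripts with a longer CDS, such as MCM7, had no matched sequence and are absent. These shares therefore cannot tell how often N-terminal extensions are occupied. Of the 196 transcripts whose 5′UTR matched in length, 4 had no in-frame stop in the whole 5′UTR (ADAR, BMP7, EPB41L4B and JARID2), and 134 (68.4%) held at least 1 in-frame AUG ORF.

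The codon with the highest value of a 5′UTR was examined in 260 covered transcripts where it held at least 10 reads. It was an AUG in 16 (6.15%, exact interval 3.56 to 9.80), while 0.669% of all covered codons are AUG. CUG, the most frequent non-AUG start codon in mammals, was the peak in 20 (7.69%, 4.76 to 11.6) and made up 2.54% of codons. All codons that differ from AUG by 1 base were the peak in 53 (20.4%, 15.7 to 25.8) and made up 12.6%. Stop codons were the peak in 7 (2.69%), the same share as among all codons.

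The ORFs behind AUG peaks were short. Counted with the stop codon they ran from 2 codons in RAB10 to 27 in POU3F3, with a median of 6, while the 736 in-frame AUGs of the covered stretches had a median of 13. CSNK1A1, casein kinase 1 alpha, had 206 of 527 reads at an AUG whose ORF has 7 codons. TFDP2, the dimer partner of E2F factors, had 122 of 574 reads at an AUG with an ORF of 8 codons. RAB10, a small GTPase of vesicle transport, had 43 of 200 reads at an AUG followed at once by a stop. SLC39A9, a zinc transporter, had 28 of 57 reads at an AUG with an ORF of 5 codons. GULP1 had 54 of 251 reads at an AUG with an ORF of 5 codons, which lies within the longer ORF given above.

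Genes known for uORF control were looked up as a group. Of 14 listed, all are in the table and 5 have a long 5′UTR: SLC35A4, MIEF1, EIF5, AZIN1 and IBTK. Their longest runs spanned 4 codons in IBTK to 20 in EIF5, and 34.2% of all 733 reached 5. Their median share of occupied codons was 28.9% against 8.05% over all 733. EIF5 and AZIN1 were also read deeply, with 18105 and 5844 CDS reads, and the long class with 5000 or more CDS reads had a median run of 5 and 14.1% of codons occupied. EIF5, an initiation factor that acts in start codon recognition, had 1004 reads in 86 of 222 codons. AZIN1 had 384 reads in 79 of 205 codons. IBTK had 54 reads in 26 of 180 codons.

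Of 20 growth regulators, 15 are in the table and 4 were long: JUN, a subunit of the AP-1 transcription factor, CDKN1B, the cell cycle inhibitor p27, RUNX1, a transcription factor of blood development, and APAF1 of the apoptosome. JUN had 1029 reads in 138 of 344 codons (40.1%) and CDKN1B 201 in 53 of 186 (28.5%). RUNX1 had 147 in 60 of 522 and APAF1 43 in 18 of 189. These lists were drawn up with earlier results of the data known. Zinc finger genes with the prefix ZNF, a group picked after the values were seen, gave 37 of the 733 transcripts, which is 10.8% of the 342 in the table, and their median ratio was 0.156.

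CDS occupancy spanned a wide range. The 5 highest values belonged to HNRNPA1L2 (20.5), RBMXL1 (1.00), LOC441155 (0.847), PGRMC2 (0.488) and RPA3 (0.434). HNRNPA1L2 and RBMXL1 are intronless copies of HNRNPA1 and RBMX. Of the 5′UTR 30-nt words of LOC441155, 83.3% occur in genes at other loci, with ZC3H11B sharing most. Reads of these 3 may thus be shared with other genes, and the values are uncertain. RPA3, a subunit of the single-strand DNA binding protein RPA, had 6273 CDS reads and 10 reads in 387 5′UTR codons, a ratio of 0.000522. PGRMC2, a membrane haem-binding protein, had 4825 CDS reads and 9 in 319 5′UTR codons.

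The 5 lowest CDS occupancies among transcripts with at least 50 CDS codons read were those of SMAD6 (0.00264), SCARA5 (0.00271), MKKS (0.00272), PPP1R26 (0.00290) and MFHAS1 (0.00312). SMAD6, an inhibitor of BMP signalling, had 162 reads in the 5′UTR and 87 in the CDS, a ratio of 3.17. SCARA5, a ferritin receptor, had 5 and 167 reads, a ratio of 0.0720. Low CDS occupancy thus went with both high and low 5′UTR occupancy.

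Translational efficiency, which sets the RPFs of a gene against its total RNA, is the 1 measure with replicates, and 439 of the 733 genes are in its table of 8121. Nothing in the labels says that the replicates are separate cultures, so p-values measure the spread between these samples, which may be technical. The members' medians in replicates 1, 2 and 3 were 0.330, 0.326 and 0.341, each below those of the 6912 genes that have an occupancy row (0.386, 0.384 and 0.392). On the log2 scale the members' median stood at -0.21 (-0.39 to -0.06) against the median of the table, that of the next shorter class at -0.15 (-0.24 to -0.05) and that of 34 to 100 codons at 0.05. The long class and its neighbour overlap in these intervals.

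Tested gene by gene with limma against the median of all values (Benjamini-Hochberg FDR of 0.05), 219 of the 439 were lower (49.9%, exact interval 45.1 to 54.7), beside 44.6% of all genes, and 167 were higher (38.04%, 33.5 to 42.8), beside 44.7%. With at least a 2-fold difference on the log2(value + 0.01) scale, 137 were lower (31.2%, 26.9 to 35.8), beside 23.3%, and 82 higher (18.7%, 15.1 to 22.6), beside 26.5%. Calls are frequent over the whole table, and the shares of the members are to be read against those. Above 200 codons of length the share called lower was 44.9% (n = 247), at the level of all genes.

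**Figure D5:**
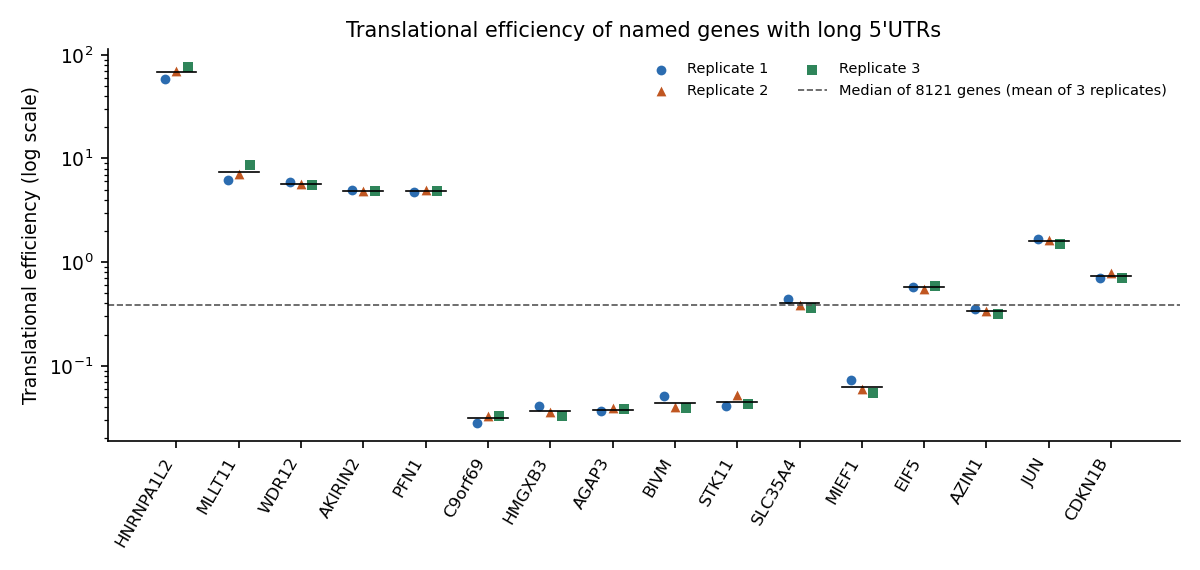
Translational efficiency (RPFs over total RNA, log scale) of 16 named genes with long 5′UTRs in replicates 1 to 3, with the mean as a bar and the median of 8121 genes as a dashed line. The 3 replicates of a gene lie close together, and SLC35A4 is the gene whose replicates lie on both sides of the line.

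The 5 highest efficiencies were those of HNRNPA1L2, MLLT11, WDR12, AKIRIN2 and PFN1. The GENCODE 5′UTR with the same CDS was long for WDR12 and AKIRIN2 (250 and 183 codons) but had only 54 codons for MLLT11, 45 for PFN1 and 20 for HNRNPA1L2, so the long leader of these 3 is uncertain. WDR12 had values of 5.92, 5.67 and 5.61 in the 3 replicates (log2 difference from the median 3.87 ± 0.05 SE), and its 5′UTR of 246 codons carries the occupied ORF described above. AKIRIN2, a factor of nuclear proteasome import, had 4.93, 4.83 and 4.90 (3.64 ± 0.05). PFN1, the actin-binding protein profilin 1, had 4.79, 4.93 and 4.83 (3.63 ± 0.05) and only 74 5′UTR reads beside 59840 in the CDS. MLLT11 had 6.22, 7.12 and 8.62 (4.21 ± 0.10), and HNRNPA1L2, the uncertain copy, had 58.0, 69.3 and 76.2 (7.42 ± 0.09). All 5 lay above the median in 3 of 3 replicates, with limma adjusted p-values of 9.56e-07 to 2.44e-06. Their CDS occupancies came in another order: 20.5 in HNRNPA1L2, 0.298 in AKIRIN2, 0.232 in MLLT11, 0.209 in PFN1 and 0.0918 in WDR12. The median over all transcripts was 0.0450. WDR12, 14.6-fold above the median in efficiency on the log2(value + 0.01) scale, thus stood less far above it in CDS occupancy. Why the measures differ was not tested.

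The 5 lowest efficiencies were those of C9orf69, HMGXB3, AGAP3, BIVM and STK11. C9orf69 had 0.0281, 0.0325 and 0.0325 in the replicates (log2 difference -3.26 ± 0.06 SE). STK11, the kinase LKB1 that activates AMPK, had 0.0406, 0.0518 and 0.0423 (-2.85 ± 0.07). AGAP3, a GTPase-activating protein, had 0.0364, 0.0391 and 0.0379 (-3.04 ± 0.05). HMGXB3 had 0.0408, 0.0361 and 0.0330, and BIVM 0.0511, 0.0404 and 0.0391. All 5 lay below the median in 3 of 3 replicates. Their 5′UTR to CDS ratios ran from 0.0931 in STK11 to 0.551 in HMGXB3, on both sides of the median of 0.105. The high ratios of HMGXB3 and AGAP3 (0.355) rest on codons that are CDS in another transcript of the gene, which held 135 of 136 and 89 of 90 of their 5′UTR reads.

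The genes of uORF control split in this measure. MIEF1, a regulator of mitochondrial fission, had 0.0733, 0.0603 and 0.0546 and was lower (log2 difference -2.44 ± 0.08, limma adjusted p = 6.51e-06). EIF5 had 0.575, 0.546 and 0.588 and was higher (0.56 ± 0.05, limma adjusted p = 0.000236). AZIN1 had 0.354, 0.339 and 0.314, lower by a small amount (-0.19 ± 0.06, limma adjusted p = 0.0260). SLC35A4 had 0.446, 0.387 and 0.365, which did not pass the test (0.05 ± 0.07, limma adjusted p = 0.515). The CDS occupancy of SLC35A4 was 0.000936, beside a median of 0.0450 over all transcripts, and its 5′UTR held 1779 reads beside 47 in the CDS. Its efficiency counts RPFs in a way not given in the sources used here, and how many of them lie in the 5′UTR is not stated. An efficiency near the median therefore cannot be read here as CDS occupancy near the median. Both growth regulators in the table were higher, JUN with 1.66, 1.64 and 1.50 (2.03 ± 0.06) and CDKN1B with 0.703, 0.777 and 0.707 (0.91 ± 0.06). Of the 21 ZNF genes in it, 14 were lower and 4 higher, where 44.6% and 44.7% of all genes were, and nothing is read from a group picked after its values were seen.

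Among the 439 genes, the ratio of 5′UTR to CDS occupancy and the efficiency had a Spearman coefficient of -0.318. Reads of the CDS enter both measures, in the denominator of the one and the numerator of the other. Length and efficiency had a coefficient of 0.089. Over the 675 transcripts with sequence, GC content, with a median of 61.5%, and the share of occupied codons had a coefficient of -0.333. These values describe genes that share the same libraries and were not tested.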

How the data were processed

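Per the methods, the authors trimmed RPF reads with Cutadapt, took out PCR duplicates with cd-hit-dup and then the unique molecular identifiers, discarded rRNA and tRNA and mapped the rest to the transcriptome of hg19 with bowtie. Reads of 28 to 30 nt were placed with a 13 nt offset. Total RNA went through Hisat2 and HTseq-count. The submitters' processing notes name cutadapt 1.16, Bowtie 1.1.2, TopHat2 2.1.1 and HTSeq 0.9.1. The deposited occupancy values are lists with 1 value per codon for the most abundant transcript of each gene. The deposited translational efficiency is a ratio, one per gene and replicate, and no formula for it is given.

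Among the occupancy rows, 31 were split over lines and rejoined, and 30 damaged CDS values were set to missing. Reads were recovered from the 3 steps of each transcript, searched up to 60 steps, and 411 5′UTR values above that are estimates. A codon was occupied if its value was above 0. Intervals of shares are 95% exact (Clopper-Pearson) and cover counting error only.

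The test of translational efficiency was limma 3.58.1 (R 4.3.3) on log2(value + 0.01). It compared each gene of the table with the overall median, and no gene was filtered out. The ratio is taken within each lysate, so the pairing of RPF and total RNA is part of the values. Sequences are GENCODE 44 on GRCh37, matched by symbol and CDS length, and ORFs run from an AUG to a stop. Other steps used Python 3.11.15 with scipy 1.17.1, pandas 2.3.3 and numpy 2.4.6.

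The members and lists were chosen with earlier results of these data known. The rule for named genes takes the highest 5′UTR and CDS occupancies, the lowest CDS occupancies, the longest runs and 5′UTRs, the longest 5′UTRs without a read, the highest and lowest efficiencies, and the members of lists of uORF control and growth regulators. Some members that the rule or the runs would name are not reported here. Genes named for their runs, ORFs, peaks, longer CDS or ratio were picked after their values were seen.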

Additional observations from a re-analysis of the deposited data

Results flagged for a closer look

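The 3′UTR lists enter no comparison above, and in the long 5′UTR transcripts they held 36704 in-frame reads, a signal above the 3 reads that a count of 0 allows. ANKRD42 alone held 32378 of them, beside 1538 in its CDS. ZNF117 held 707 and MTRNR2L8 659, and with ANKRD42 they made up 91.9%. A 3′UTR read was present in 389 of the 733 transcripts, and 3′UTR reads were 1.16% of all their reads.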

How the results depend on the processing

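Of 65 alternative values for the main results, 55 stayed within the 95% interval of the main value and none reversed. In the 575 matched transcripts with no overlap with another annotated CDS in their covered part, median 5′UTR occupancy was 0.00314. Their occupied share was 6.77% and their ratio 0.0866. Means in place of medians gave 0.0142 for 5′UTR occupancy, 0.503 for the ratio and 0.0851 for CDS occupancy. With a codon called occupied only from 2 times the smallest value of its transcript, the occupied share was 3.37%. With a single empty codon allowed inside a run, the median run was 5. With at least 100 CDS reads, CDS occupancy was 0.0408. Above 200 codons, 44.9% of genes were called lower in efficiency. Leaving out each replicate in turn gave 36.2% to 36.7% called higher and 47.6% to 49.0% lower. With a replicate block, in which the median of each replicate was taken off first so that the pairing by number is kept, 38.04% were higher and 50.1% lower. Leaving out MTRNR2L1 and MTRNR2L8, chosen after seeing the data, moved no median beyond its interval (ratio 0.105). All 55 alternatives for single genes kept their direction and call, though the log2 differences of the 5 lowest efficiencies shrank when 0.1 was added in place of 0.01. Runs of 10 or more codons fell from 9.14% of all transcripts of the class to 6.09% of those 575 with no overlap seen. Depth limits the runs, and the replicates combined in the occupancy table leave its values without a replicate error.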
